A study of Mus musculus with 12 samples.

Results

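The nuclear genes for the subunits of the mitochondrial respiratory chain and ATP synthase were followed in scrapings of the mouse gastric fundus, whose glands secrete acid, in animals with and without the hormone gastrin. Members were chosen by gene symbol, with earlier results of these data known. They were the Nduf a, b, c, s and v families of complex I, Sdha to Sdhd of complex II, the Uqcr genes and Cyc1 of complex III, Cycs for cytochrome c, the Cox4 to Cox8 families of complex IV, and the Atp5 genes of ATP synthase, complex V. Of 12393 genes with a probe set of 1 symbol, 80 were members: 33 of complex I, 4 of complex II, 9 of complex III, 1 for cytochrome c, 16 of complex IV and 17 of complex V. A gene with several probe sets was read from the one with the highest mean over the 12 arrays, which was the case for 44 genes, and the other 36 had 1 probe set. Another 7 matching probe sets carried several symbols and were not used, so Ndufa11, Ndufb4 and Ndufs6 have no value here. None of the 13 subunits encoded in mitochondrial DNA was named in the probe table, so the results cover the nuclear genes only.

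The respiratory chain passes electrons from NADH (complex I) and succinate (complex II) through complex III and cytochrome c to oxygen at complex IV, and ATP synthase uses the proton gradient this builds to make ATP. Parietal cells, the acid-secreting cells of the fundic gland, are packed with mitochondria, because the gastric proton pump that acidifies the stomach consumes ATP. Gastrin, released by the antrum, acts on parietal cells and on the histamine-releasing enterochromaffin-like cells through the CCK2 receptor, which cholecystokinin (CCK) also binds.

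The study compared mucosal scrapings of the fundus in 4 groups of 3 arrays each. The gastrin-infused group was gastrin knockout mice given gastrin for 1 week. The double knockout group lacked both gastrin and CCK, with no infusion stated. The saline-infused group was gastrin knockout mice given saline for 1 week, labelled as 2 month old males. Wild-type samples came from about 2 to 4 mice each. The labels give no age or sex for the other 3 groups, no strain and no infusion for wild type, and do not say for the other groups whether samples were single animals or pools, nor for any group that replicates came from separate animals, so p-values measure only the spread between these samples. The saline group lacked gastrin and was also infused, and the double knockout and wild type were not stated to be infused, so infusion and genotype cannot be told apart in comparisons across them. All comparisons share arrays with at least 1 other.

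Each array gave 1 intensity per probe set on a linear scale, with medians of 403 to 421 over the 22626 probe sets tested. The bright end was lower in the double knockout, where the 99th percentile was 17247 to 18952 and the maximum 65365 to 71514, against 19778 to 23927 and 88899 to 113441 on the other 9 arrays. Member results are therefore given for the deposited intensities and, where the 2 differ, after quantile normalization, which makes the arrays' distributions alike. Gast, the gene of gastrin, was at -72 to -34 in gastrin-infused knockouts, -162 to -35 in double knockouts and -8 to 37 in saline-infused knockouts, against 318 to 823 in wild type. Cck lay at -9 to 130 on all 12 arrays, where the noise level was 67 to 96, the size of the lowest 1 percent of values, so it checked no label. Fundic markers were present, with the proton pump gene Atp4a at 35107 to 68031 and the chief cell product Pgc at 57602 to 106820. As a sign of RNA integrity, Gapdh signal at its 3′ end over that at its 5′ end was 1.17 to 1.21 in the gastrin-infused, 1.29 to 1.32 in the double knockout and 1.01 to 1.18 in the saline-infused group, against 0.983 to 2.00 in wild type.

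Across the 80 genes, the saline-infused knockout lay slightly below wild type, gastrin infusion went with slightly higher values than saline, and the double knockout lay lowest before normalization. The median log2 difference of the members from the wild-type mean was 0.03 to 0.10 on the gastrin-infused arrays, -0.40 to -0.20 on the double knockout arrays and -0.19 to -0.06 on the saline-infused arrays, while the wild-type arrays themselves ranged from -0.07 to 0.14. After quantile normalization these medians were 0.05 to 0.12 in the gastrin-infused, -0.20 to -0.04 in the double knockout, -0.22 to -0.13 in the saline-infused and -0.03 to 0.04 in the wild-type group. On that scale the groups did not overlap except for the double knockout with the saline-infused knockout. With deposited values the members' median SD between replicates, on the log2 scale, was 0.09 in the gastrin-infused and 0.15 in the double knockout group. It was 0.11 in the saline-infused group, against 0.14 in wild type. A change in members in scraped tissue cannot separate fewer cells of a mitochondria-rich type from less RNA per cell.

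**Figure D1:**
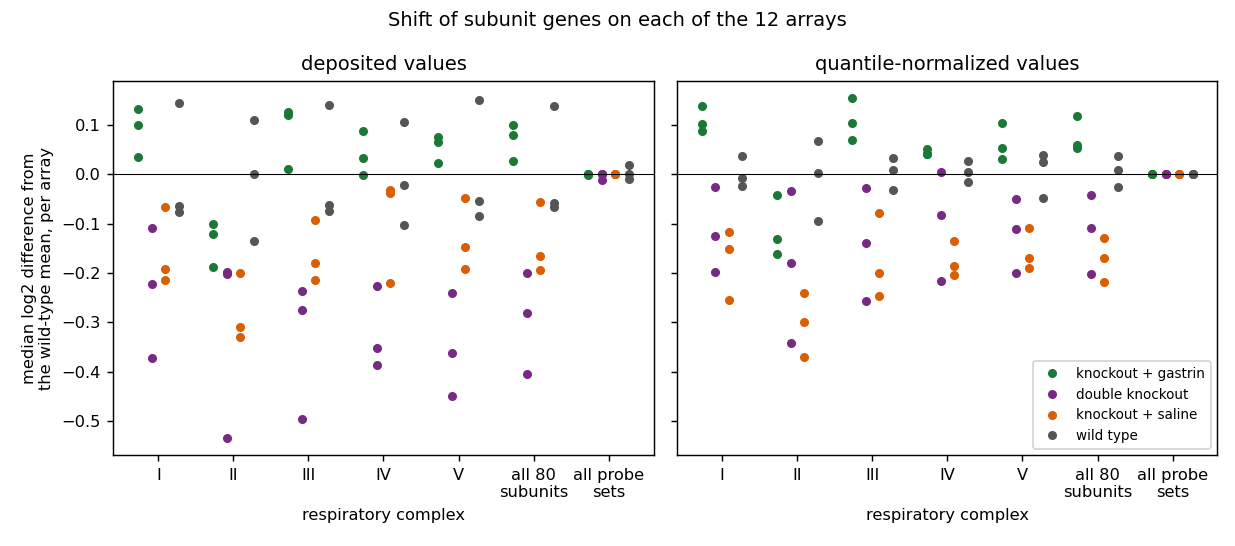
Median log2 difference of each respiratory complex's genes from the wild-type mean, 1 point per array, with deposited values (left) and quantile-normalized values (right). For all 80 subunits the saline-infused knockout arrays lie between -0.22 and -0.13 after quantile normalization and the gastrin-infused arrays between 0.05 and 0.12, while the medians over all probe sets sit near 0.

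**Figure D2:**
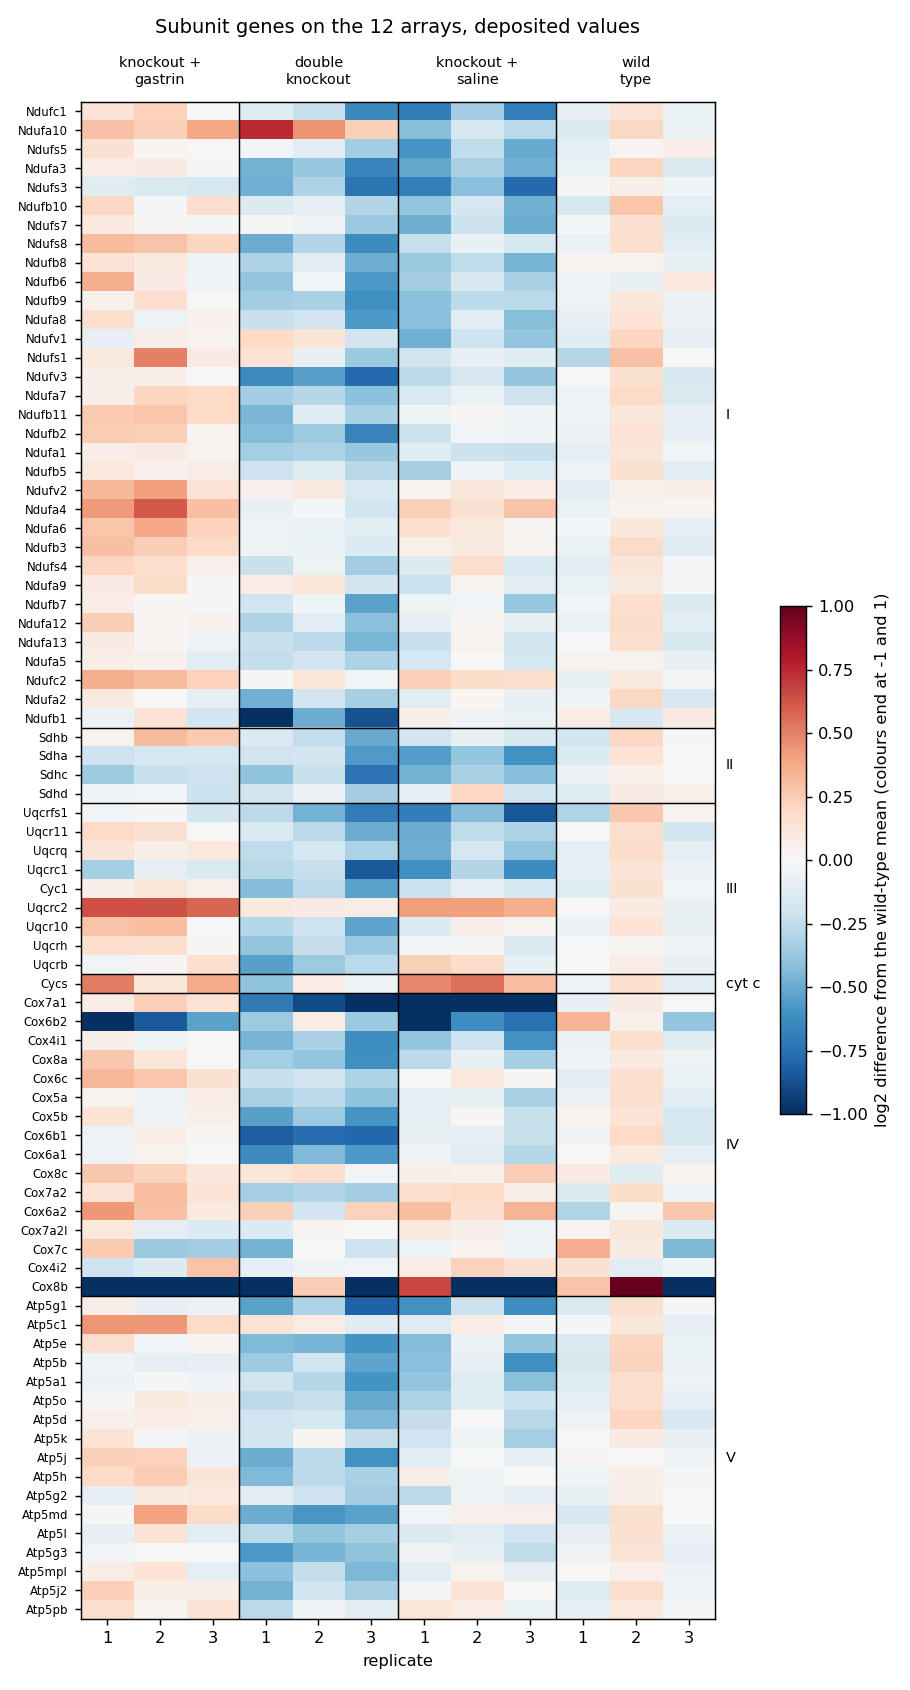
Log2 difference of every subunit gene (rows, grouped by complex at the right) from its wild-type mean on each of the 12 arrays (columns, by group and replicate), deposited values with those under 16 raised to 16. Blue fills most rows of the double knockout, Cox7a1 is blue in the double knockout and the saline-infused knockout, and Uqcrc2 is red in both infused groups. Cox8b and Cox6b2 lie near the noise level.

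In the gastrin-infused against the saline-infused knockout, the comparison of the infused hormone with its vehicle, 1 of 80 members passed the test, Cox7a1, which rose, against 1.25% of all probe sets called, 0.773% higher and 0.473% lower (limma, adjusted p under 0.05). The members' median log2 fold change was 0.22, against 0.00 over all probe sets. Values lay above 0 for 72 of 80 members, against 48.4% of all probe sets. All 3 gastrin-infused arrays exceeded all 3 saline-infused arrays for 48 members, where 10.5% of all probe sets did so, and the opposite held for 0 members, where 10.3% of all probe sets did so. After quantile normalization 15 members rose and 0 fell, against 2.61% of all probe sets called, 1.56% higher and 1.05% lower. These 15 were Ndufa3, Ndufa7, Ndufa10, Ndufb8, Ndufb10, Ndufb11, Ndufc1, Ndufs3, Ndufs5, Ndufs8 and Ndufv3 of complex I, Uqcr11 and Uqcrq of complex III, and Cox4i1 and Cox7a1 of complex IV. The other probe sets of Uqcrq gave -0.31, 0.24 and 0.31 on this scale and none passed. By complex, the deposited medians were 0.28 for complex I, 0.24 for complex II, 0.24 for complex III, 0.14 for complex IV and 0.20 for complex V.

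For the saline-infused knockout set against wild type, 3 of 80 members passed: Cox7a1 and Ndufs3 fell and Uqcrc2 rose. Of all probe sets 2.08% were called, 0.707% higher and 1.37% lower. The median was -0.14, against 0.00 over all probe sets. Values lay below 0 for 62 of 80 members, against 49.0% of all probe sets, and all 3 saline-infused arrays were below all 3 wild-type arrays for 27 members, against 12.4%. After quantile normalization 10 members fell and 1 rose, against 3.29% of all probe sets called, 2.03% lower and 1.26% higher, and the median was -0.19. Of the members, 13 lay above 0 on this scale, against 49.6% of all probe sets. The added calls, all lower, were Ndufa3, Ndufb8 and Ndufv3 of complex I, Sdha of complex II, Uqcrfs1 and Uqcrq of complex III, Cox4i1 of complex IV and Atp5g1 of complex V. The other probe sets of Uqcrq gave 0.35, -0.14 and 0.16 on this scale and none passed. By complex, the deposited medians were -0.15 for complex I, -0.27 for complex II, -0.16 for complex III, -0.12 for complex IV and -0.14 for complex V. Without saline-infused replicate 1 a single member passed, Cox7a1. With the Gapdh ratio as a covariate a single member passed, Uqcrc2, with a median of -0.06. The share of all probe sets called in either fit is not given.

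For the double knockout over wild type, 19 of 80 members fell and 0 rose, against 4.14% of all probe sets called, 2.02% higher and 2.12% lower. The median was -0.33, and all 3 double knockout arrays were below all 3 wild-type arrays for 48 members, where 12.9% of all probe sets were. The calls were spread over 4 complexes: 7 of 33 in complex I, 2 of 9 in complex III, 5 of 16 in complex IV and 5 of 17 in complex V, with 0 of 4 in complex II, where 3 had an unadjusted p under 0.05. After quantile normalization 7 members fell and 0 rose, against 4.68% of all probe sets called, 2.43% higher and 2.25% lower, and the median was -0.11. These 7 were Ndufb1, Ndufb2, Ndufs3 and Ndufv3 of complex I, Cox6b1 and Cox7a1 of complex IV, and Atp5e, a central stalk subunit of ATP synthase. Without 1 array the deposited count was 3 (double knockout replicate 1), 5 (double knockout replicate 3) or 16 (double knockout replicate 2). It was 6 without wild-type replicate 1, 5 without wild-type replicate 2 and 6 without wild-type replicate 3. The share of all probe sets called in these fits is not given, so the counts describe the members only.

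The size of the double knockout difference moved with brightness. The 19 members with a mean of 20000 or above had a median log2 fold change of -0.36 against wild type, and the 243 probe sets of all kinds in that range had a median of -0.34. The 49 members from 5000 to under 20000 had a median of -0.31, and the 1130 probe sets in that range -0.13. After quantile normalization the same 2 member medians were -0.08 and -0.13, beside -0.01 and -0.01 for all probe sets. In the gastrin-infused against the saline-infused knockout members and all probe sets had opposite signs: the members' deposited medians were 0.21 and 0.24 in the 2 ranges, and those of all probe sets -0.09 and -0.07. The ranges were chosen after the values were seen.

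In the double knockout against the saline-infused knockout, 9 members fell and 1 rose, against 5.98% of all probe sets called, 2.76% lower and 3.22% higher. After quantile normalization the split turned round, with 7 members higher and 1 lower, against 6.52% called, 3.70% higher and 2.82% lower. The median was -0.16 before and 0.04 after normalization, so no direction is given for the members together. Ndufa10, which rose, and Ndufb1, which fell, passed on both scales. Without 1 array the deposited count was 1 (double knockout replicate 1) or 5 (double knockout replicate 3), against 10 with all arrays. It was 1 without saline-infused replicate 1 and 3 without saline-infused replicate 2. Here too the share of all probe sets called in these fits is not given.

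In the gastrin-infused knockout against wild type, 1 of 80 members passed, Uqcrc2, which rose, against 0.110% of all probe sets called. The median was 0.06 and the range of fold changes among complex I genes was -0.15 to 0.45. On quantile-normalized values Uqcrc2 was again the 1 member called, against 0.225% of all probe sets.

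**Figure D3:**
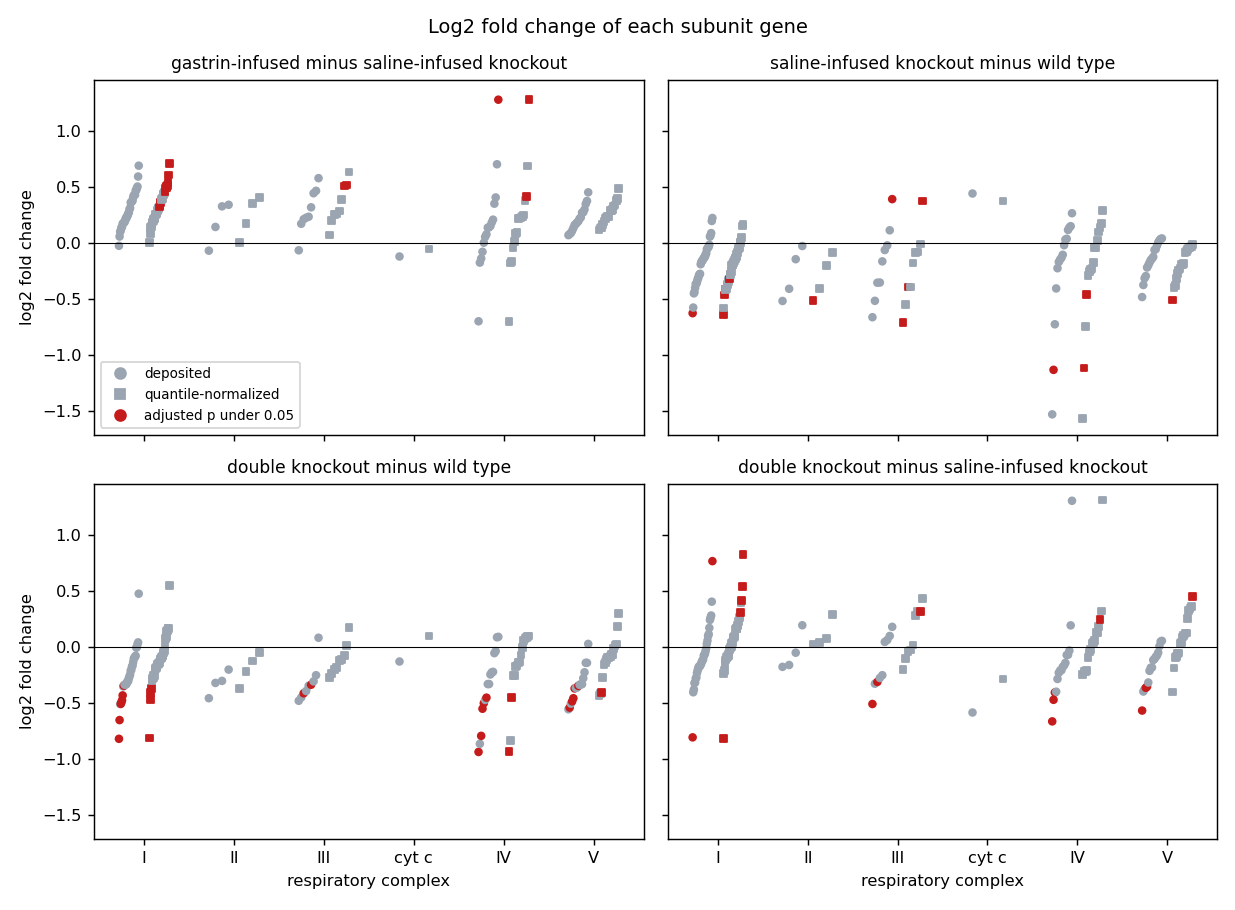
Log2 fold change of each subunit gene by complex in 4 comparisons, with deposited values as circles, quantile-normalized values as squares and an adjusted p under 0.05 in red. The gastrin-infused minus saline-infused panel holds 15 red squares, all above 0, and the double knockout minus wild type panel holds 19 red circles, all below 0, beside 7 red squares.

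Complex I takes electrons from NADH, and Ndufs3 is one of the core subunits of its hydrophilic arm. Ndufs3 read 9626, 9486 and 9262 in gastrin-infused knockouts, 7529, 8469 and 6320 in double knockouts and 6545, 7870 and 6125 in saline-infused knockouts, against 10388, 10924 and 10166 in wild type. All 3 wild-type arrays were highest, the gastrin-infused arrays came next without overlap, and the double knockout and the saline-infused knockout overlapped. Against wild type, Ndufs3 fell in the saline-infused knockout, with a log2 fold change of -0.62 ± 0.12 (SE, adjusted p = 0.0388). That call held in 1 of the 6 fits that each left out 1 array, failing without saline-infused replicate 1 or 3 or any wild-type array, with log2 fold changes of -0.73 to -0.55 in all 6. After quantile normalization its adjusted p was 0.00907 there, 0.0222 for gastrin over saline (0.50 ± 0.08, SE) and 0.0306 for the double knockout against wild type (-0.40 ± 0.08).

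Ndufb1 and Ndufa10, both accessory subunits, set the double knockout apart from the saline-infused knockout in opposite directions on both scales. Ndufb1 read 3218, 3699 and 2938 in gastrin-infused knockouts, 1582, 2377 and 1833 in double knockouts and 3492, 3273 and 3205 in saline-infused knockouts, against 3531, 2997 and 3556 in wild type. All 3 double knockout arrays lay below the other 9, which overlapped. Ndufb1 fell against wild type (-0.82 ± 0.15, adjusted p = 0.0242) and against the saline-infused knockout (-0.80 ± 0.15, adjusted p = 0.0195). Each of the 2 calls held in 2 of 6 fits that left out 1 array, and was lost without double knockout replicate 1 or 3, and without wild-type replicate 1 or 3 for the first and saline-infused replicate 1 or 2 for the second.

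Ndufa10 read 4630, 4442 and 4917 in gastrin-infused knockouts, 6321, 5152 and 4452 in double knockouts and 2802, 3349 and 3123 in saline-infused knockouts, against 3411, 4361 and 3604 in wild type. The saline-infused arrays were below all others, and the double knockout and the gastrin-infused knockout overlapped. Against the saline-infused knockout, Ndufa10 rose in the double knockout (0.77 ± 0.14, adjusted p = 0.0178), a call lost without double knockout replicate 1 (0.0512) or saline-infused replicate 1 (0.0607). Gastrin over saline gave 0.60 ± 0.14 (adjusted p = 0.0784), and 0.61 ± 0.13 (0.0498) after quantile normalization. A second Ndufa10 probe set read -82 to 177 over the 12 arrays, mostly within the noise, and is given no fold.

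Ndufv3, an accessory subunit of the NADH-oxidizing arm, read 22156, 22140 and 21086 in gastrin-infused knockouts, 13640, 14540 and 12368 in double knockouts and 17639, 18855 and 16154 in saline-infused knockouts, against 21217, 23536 and 18946 in wild type. Double knockout arrays were the lowest, saline-infused arrays were next, and those of the gastrin-infused knockout and wild type overlapped. Ndufv3 fell in the double knockout against wild type (-0.65 ± 0.10, adjusted p = 0.0131), and this call held whichever array was left out. The accessory subunits Ndufa1 (-0.34), Ndufa3 (-0.50), Ndufb2 (-0.49) and Ndufb9 (-0.43), and the core subunit Ndufs8 (-0.47), also fell in that comparison, with adjusted p of 0.0312 to 0.0443. Ndufs8 read 10929, 12636 and 9985 in the double knockout, against 14779, 17362 and 14346 in wild type, without overlap. The other probe sets of Ndufs8 gave -0.37, -0.40, -0.05, 0.18 and -0.34 there, and none passed. None of these 5 genes held in more than 1 of the 6 fits that left out 1 array. Ndufb9, the brightest complex I gene, averaged 25847 ± 1648 in gastrin-infused knockouts, 18356 ± 1937 in double knockouts and 19852 ± 1149 in saline-infused knockouts, against 24654 ± 1706 in wild type (SD, n = 3 each).

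Ndufa4, long counted with complex I and now known as a complex IV subunit, is grouped here by its symbol and did not pass in any comparison. It read 24472, 27886 and 22427 in gastrin-infused knockouts, 17265, 18019 and 15958 in double knockouts and 21481, 20234 and 22176 in saline-infused knockouts, against 17369, 18689 and 18567 in wild type. Both infused groups lay above wild type on all arrays, and the double knockout overlapped wild type. Its log2 fold change for the gastrin-infused knockout over wild type was 0.45 ± 0.09 (adjusted p = 0.122).

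Promoter windows were read from RefSeq for the members, because many complex I genes lay together on one side in the gastrin comparison. Of the 80 genes, 65 had a window of 250 bases before to 50 bases after the transcript start (GRCm38.p6), which were searched on both strands for 3 motifs known from genes of the respiratory chain. The NRF1 motif, which may match on either strand, was present in 14 of 65 member genes (21.54%) and 5.188% of 27025 genes in the table. AANATGGC, bound by YY1, was present in 15 (23.08%) and 6.96%, and CCGGAAGT, bound by ETS factors such as GABP, in 5 (7.692%) and 4.307%. No motif contains another. The median GC content was 58.5% in the 70 member windows and 52.667% in all 32851 windows. A match is a description of the letters only. The windows of Ndufs3 and Ndufb8 are shown as examples of an ETS and a YY1 match, chosen after the matches were seen, among genes called after quantile normalization both for gastrin over saline and for saline against wild type. Of the other genes called in both, Ndufa3 had a YY1 match, and Ndufv3 and Cox7a1 had none of the 3 motifs. Cox4i1 and Uqcrq were also called in both but had no window, so their motifs are not known here. Capitals mark the ETS motif of Ndufs3 on the opposite strand, at the start site (chr2:90904672-90904971, minus strand), and the YY1 motif of Ndufb8 (chr19:44555393-44555692, minus strand), each written 5′ to 3′ along the gene.
Ndufs3: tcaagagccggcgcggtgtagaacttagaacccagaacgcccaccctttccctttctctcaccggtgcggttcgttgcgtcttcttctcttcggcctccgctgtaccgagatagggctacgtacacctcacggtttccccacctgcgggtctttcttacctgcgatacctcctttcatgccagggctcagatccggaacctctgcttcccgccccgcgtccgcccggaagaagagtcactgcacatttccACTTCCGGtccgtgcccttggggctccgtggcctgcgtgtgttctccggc
Ndufb8: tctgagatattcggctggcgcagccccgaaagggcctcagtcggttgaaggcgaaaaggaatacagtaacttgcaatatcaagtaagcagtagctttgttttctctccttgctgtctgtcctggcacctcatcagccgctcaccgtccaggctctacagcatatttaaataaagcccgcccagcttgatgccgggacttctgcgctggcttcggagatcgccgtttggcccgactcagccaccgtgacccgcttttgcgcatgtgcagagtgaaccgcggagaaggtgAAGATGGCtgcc
Ndufb8, an accessory subunit of the membrane arm, read 17385, 16903 and 15297 in gastrin-infused knockouts, 12760, 14613 and 11215 in double knockouts and 12207, 13251 and 11414 in saline-infused knockouts, against 16192, 16126 and 14993 in wild type. With deposited values the saline-infused and double knockout arrays were all below the other 6. On the quantile-normalized scale Ndufb8 was called higher in the double knockout than in the saline-infused knockout (0.31 ± 0.07, adjusted p = 0.0403). On that scale it was not called in the double knockout against wild type. After quantile normalization Ndufb8 rose with gastrin over saline (0.49 ± 0.07, adjusted p = 0.0163) and fell with saline against wild type (-0.41 ± 0.07, adjusted p = 0.0247); with deposited values the adjusted p were 0.0869 and 0.119.

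Complex II oxidizes succinate and is also an enzyme of the citric acid cycle. Its flavoprotein Sdha read 7360, 7540 and 7545 in gastrin-infused knockouts, 7410, 7472 and 5739 in double knockouts and 5803, 6514 and 5582 in saline-infused knockouts, against 7723, 9372 and 8499 in wild type. Wild-type arrays were the highest, and the saline-infused arrays lay below the gastrin-infused ones. Sdha fell in the saline-infused knockout after quantile normalization (-0.51 ± 0.09, adjusted p = 0.0259), and with deposited values it was -0.51 ± 0.12 (adjusted p = 0.0608). Its second probe set gave -0.50 on the quantile-normalized scale, also past the test. Complex II was the 1 complex whose gastrin-infused arrays lay below the wild-type mean on all 3 arrays, with medians of -0.19 to -0.10. Sdhb, the iron-sulphur subunit and the brightest of the 4, averaged 15585 ± 1572 in gastrin-infused knockouts, 11029 ± 1362 in double knockouts and 12246 ± 520 in saline-infused knockouts, against 13593 ± 1919 in wild type (SD, n = 3 each). It passed no comparison, with a log2 fold change of 0.34 ± 0.13 for gastrin over saline (adjusted p = 0.237).

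Complex III carries electrons from ubiquinol to cytochrome c. Uqcrc2, one of its 2 core proteins, was the member called higher against wild type in both infused groups. Its brighter probe set read 10086, 10045 and 9648 in gastrin-infused knockouts, 6887, 6837 and 6804 in double knockouts and 8608, 8584 and 8235 in saline-infused knockouts, against 6427, 6811 and 6125 in wild type. The gastrin-infused arrays were highest and the saline-infused arrays next, without overlap, while the double knockout overlapped wild type (0.09 ± 0.06, adjusted p = 0.463). Uqcrc2 rose in gastrin-infused knockout mucosa (0.62 ± 0.06, adjusted p = 0.00501) and in saline-infused knockout (0.39 ± 0.06, adjusted p = 0.0159), both against wild type. The second call was lost without saline-infused replicate 1 (adjusted p = 0.0601), and the first held whichever array was left out. In the double knockout against the saline-infused knockout it fell on this probe set (-0.31 ± 0.06, adjusted p = 0.0183). That call held in 3 of the 6 fits that left out 1 array and did not pass after quantile normalization. A second probe set read 7631, 8057 and 7403 in gastrin-infused knockouts, 8790, 10337 and 7329 in double knockouts and 6369, 7251 and 6526 in saline-infused knockouts, against 6257, 6243 and 6052 in wild type. It gave 0.32, 0.12 and 0.38 for the same 3 comparisons and passed none, so the 2 probe sets part ways in the double knockout.

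The other core protein, Uqcrc1, passed in no comparison. It read 13244, 15603 and 15011 in gastrin-infused knockouts, 13763, 14197 and 9327 in double knockouts and 10874, 13575 and 10778 in saline-infused knockouts, against 15762, 18341 and 16002 in wild type. Wild-type arrays were above all others, which overlapped. The saline-infused knockout gave -0.51 ± 0.17 against wild type (adjusted p = 0.159), opposite in sign to Uqcrc2. Its promoter window (chr9:108936398-108936697, plus strand, GRCm38.p6, RefSeq) is shown because it holds 2 matches of the NRF1 motif, in capitals, both past the start site, where GCGCTTGCGC fits the motif on the opposite strand.
Uqcrc1: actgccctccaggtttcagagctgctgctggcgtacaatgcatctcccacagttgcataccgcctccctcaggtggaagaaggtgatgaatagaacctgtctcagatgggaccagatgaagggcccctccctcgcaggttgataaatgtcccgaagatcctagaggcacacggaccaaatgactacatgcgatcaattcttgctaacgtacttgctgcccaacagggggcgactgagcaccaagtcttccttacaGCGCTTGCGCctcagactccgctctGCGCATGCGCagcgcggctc
Uqcrfs1, the Rieske iron-sulphur protein, read 17783, 17812 and 15854 in gastrin-infused knockouts, 15114, 13042 and 11126 in double knockouts and 11198, 13358 and 10027 in saline-infused knockouts, against 14663, 21755 and 18532 in wild type. All 3 saline-infused arrays were below wild type, and after quantile normalization Uqcrfs1 fell there (-0.71 ± 0.16, adjusted p = 0.0486).

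Cyc1, which carries the haem of cytochrome c1, and Uqcrh, the hinge protein, fell in the double knockout against wild type. Cyc1 averaged 18542 ± 509 in gastrin-infused knockouts, 13282 ± 1314 in double knockouts and 15742 ± 689 in saline-infused knockouts, against 17645 ± 1688 in wild type (SD, n = 3 each), with a log2 fold change of -0.41 ± 0.09 (SE, adjusted p = 0.0443). Uqcrh had -0.33 ± 0.07 (adjusted p = 0.0391). Each held in 1 of 6 fits that left out 1 array and neither passed after quantile normalization. Uqcrb, a small subunit and the brightest of complex III, read 37985, 43006 and 45957 in the double knockout, against 65372, 62624 and 52492 in the saline-infused knockout, and fell (-0.51 ± 0.11, adjusted p = 0.0290). The arrays did not overlap, but after quantile normalization the value was 0.02 (adjusted p = 0.919), so the call depends on the scaling. Its second probe set gave -0.44 with deposited values, also past the test.

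Cytochrome c, Cycs, shuttles electrons between complexes III and IV and stood higher in the infused groups, without passing the test. It read 23767, 17981 and 21422 in gastrin-infused knockouts, 12519, 17449 and 16046 in double knockouts and 23166, 24292 and 20564 in saline-infused knockouts, against 16013, 18482 and 15386 in wild type. The saline-infused arrays were above wild type on all 3, while the gastrin-infused arrays overlapped both. The log2 fold change for saline against wild type was 0.45 ± 0.15 (adjusted p = 0.163), above 0 where the complex medians were below it. Its 2 dimmer probe sets averaged 12337 ± 973 and 6503 ± 402 in the saline-infused knockout, against 12692 ± 1012 and 7414 ± 660 in wild type, and so did not share that sign.

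Complex IV reduces oxygen, and several of its subunits exist as tissue isoforms. Cox7a1, the heart and skeletal muscle isoform of subunit 7a, was the member with the largest change of those called. Cox7a1 read 4442, 4993 and 4666 in gastrin-infused knockouts, 2595, 2268 and 1840 in double knockouts and 1719, 2118 and 1980 in saline-infused knockouts, against 3991, 4465 and 4234 in wild type. The 6 arrays from mice with gastrin were all above the 6 without, with a gap between 2595 and 3991. Gastrin-infused and wild-type arrays overlapped, and so did double knockout and saline-infused arrays. Group means were 4700 ± 277 in gastrin-infused knockouts, 2234 ± 379 in double knockouts and 1939 ± 203 in saline-infused knockouts, against 4230 ± 237 in wild type (SD, n = 3 each).

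Cox7a1 rose with gastrin over saline by a log2 fold change of 1.28 ± 0.13 (adjusted p = 0.00784). Against wild type it fell in the saline-infused knockout (-1.13 ± 0.13, adjusted p = 0.00898) and in the double knockout (-0.93 ± 0.13, adjusted p = 0.00902). These 3 calls held whichever array was left out, with ranges of 1.20 to 1.35, -1.20 to -1.05 and -1.05 to -0.80. After quantile normalization the values were 1.28, -1.11 and -0.93. The double knockout gave 0.20 ± 0.13 against the saline-infused knockout (adjusted p = 0.442), and the gastrin-infused knockout gave 0.15 ± 0.13 against wild type (adjusted p = 0.708). With the Gapdh ratio as a covariate the call of the saline-infused knockout against wild type was lost (adjusted p = 0.0521) and that of gastrin over saline was kept. Cox7a1 had 1 probe set, so there was no second reading to set beside it.

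Cox7a2, the isoform of most tissues, passed in 1 comparison. It read 47522, 53406 and 47336 in gastrin-infused knockouts, 34018, 34985 and 33853 in double knockouts and 48151, 49162 and 45057 in saline-infused knockouts, against 39202, 48941 and 41493 in wild type. Double knockout arrays were the lowest, and the other 3 groups overlapped. Gastrin over saline gave 0.06 ± 0.09 (adjusted p = 0.832), and saline against wild type 0.14 ± 0.09 (adjusted p = 0.464). Cox7a2 fell in the double knockout against the saline-infused knockout (-0.47 ± 0.09, adjusted p = 0.0214), and after quantile normalization this was -0.02 (adjusted p = 0.951). The difference between the 2 isoforms was not tested. Their promoter windows are shown as the pair of isoforms described: Cox7a1 at chr7:30183921-30184220 (plus strand) and Cox7a2 at chr9:79759804-79760103 (minus strand), both GRCm38.p6 from RefSeq. Neither window holds any of the 3 motifs searched, so no letters are in capitals.
Cox7a1: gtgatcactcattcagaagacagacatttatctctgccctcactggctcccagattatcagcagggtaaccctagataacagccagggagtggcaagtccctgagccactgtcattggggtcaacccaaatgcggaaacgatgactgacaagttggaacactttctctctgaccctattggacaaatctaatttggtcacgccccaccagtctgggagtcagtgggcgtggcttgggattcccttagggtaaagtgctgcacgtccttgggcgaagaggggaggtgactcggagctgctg
Cox7a2: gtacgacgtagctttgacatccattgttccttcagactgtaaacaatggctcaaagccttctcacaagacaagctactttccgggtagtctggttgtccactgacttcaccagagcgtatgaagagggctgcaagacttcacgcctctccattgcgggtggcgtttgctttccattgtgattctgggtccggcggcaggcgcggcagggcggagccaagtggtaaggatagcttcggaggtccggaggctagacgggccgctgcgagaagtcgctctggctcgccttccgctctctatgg

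**Figure D4:**
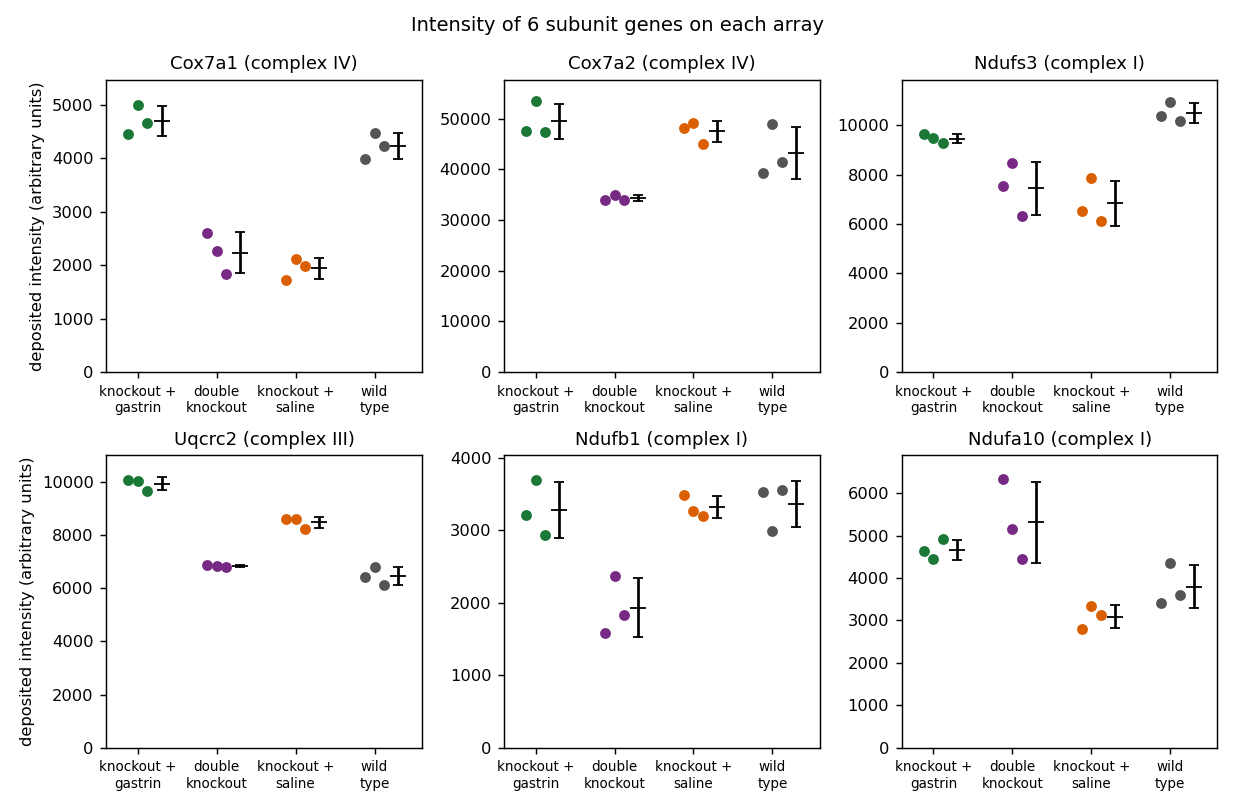
Deposited intensity of 6 subunit genes on each array, with points for arrays and a bar for the mean and SD of each group at its right. Cox7a1 lies at 4442 to 4993 with gastrin infusion and 3991 to 4465 in wild type, and at 1719 to 2595 in the 2 groups without gastrin, while Ndufb1 is low in the double knockout alone among these groups.

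Since Cox7a1 is known from muscle, muscle markers are given beside it. All 9 of 9 striated muscle markers were measured and none passed in any of the comparisons above with deposited values. After quantile normalization Ckm fell in the double knockout against the saline-infused knockout (-0.84 ± 0.20, adjusted p = 0.0449). Their summed intensity was 2371 to 3041 in gastrin-infused knockouts, 1842 to 2621 in double knockouts and 2402 to 4185 in saline-infused knockouts, against 1985 to 2490 in wild type. Over the 12 arrays Tnni2 read 593 to 1847, Ckm 377 to 895, Acta1 194 to 837, Actc1 71 to 311 and Tnnt3 90 to 234, while Myh1, Myh2, Myh4 and Mb lay at -37 to 153. The 9 stroma and smooth muscle markers summed to 17566 to 37620 in gastrin-infused knockouts, 7119 to 14009 in double knockouts and 9551 to 17990 in saline-infused knockouts, against 16896 to 19054 in wild type. All 9 lay above 0 for gastrin over saline (median 0.78) and all 9 below 0 for saline against wild type (median -0.67), with none called in either. In the double knockout against wild type all 9 lay below 0 (median -1.28), and Col1a1 fell (-1.28 ± 0.24, adjusted p = 0.0259), also after quantile normalization. The top of that range was gastrin-infused replicate 1, where Tagln read 7027, against 631 and 803 on the other 2 gastrin-infused arrays, while Cox7a1 was 4442 there and 4666 and 4993 on the others. The part of striated muscle, stroma and smooth muscle in the Cox7a1 result was not tested.

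Other complex IV isoforms are given for comparison, and Cox7b and Cox7b2 were not analysed here. Cox4i1, the common isoform of subunit 4, read 39300, 36714 and 37683 in gastrin-infused knockouts, 27410, 30100 and 24533 in double knockouts and 28736, 32630 and 24778 in saline-infused knockouts, against 36282, 42556 and 34782 in wild type. Its gastrin-infused and wild-type arrays were all above the other 6. After quantile normalization it rose with gastrin over saline (0.42 ± 0.09, adjusted p = 0.0470) and fell in saline-infused knockout mucosa against wild type (-0.46 ± 0.09, adjusted p = 0.0327). The lung isoform Cox4i2 read 424 to 597 over the 12 arrays, the heart and muscle isoform Cox6a2 1154 to 1918 and the testis isoform Cox8c 2152 to 2811, and none of the 3 passed in any comparison. The testis isoform Cox6b2 read -42 to 188, and Cox8b of heart and muscle -171 to 94, both reaching into the noise, and no fold is given for them. Cox7c read 155 to 277, dim but above the noise level of every array, and passed in no comparison.

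Cox6b1, on the outer face of complex IV, fell in the double knockout against wild type on both scales. It read 48599, 53076 and 50980 in gastrin-infused knockouts, 28510, 29772 and 29182 in double knockouts and 47894, 47217 and 43281 in saline-infused knockouts, against 49124, 57949 and 44993 in wild type. The double knockout arrays stood apart below all other arrays. Cox6b1 fell against wild type (-0.79 ± 0.09, adjusted p = 0.00550) and against the saline-infused knockout (-0.66 ± 0.09, adjusted p = 0.00778), and both calls held whichever array was left out. After quantile normalization the first was -0.45 ± 0.06 (adjusted p = 0.00759) and the second -0.22 ± 0.06 (adjusted p = 0.0769). Its second probe set gave -0.52 and -0.26 with deposited values, the first of these past the test.

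Cox6a1, the common isoform of subunit 6a and the brightest of complex IV, averaged 52822 ± 1611 in gastrin-infused knockouts, 36311 ± 2473 in double knockouts and 48069 ± 4213 in saline-infused knockouts, against 53074 ± 3475 in wild type (SD, n = 3 each). It fell in the double knockout against wild type (-0.55 ± 0.09, adjusted p = 0.0144), a call lost without double knockout replicate 1 (adjusted p = 0.0510) and after quantile normalization (-0.17, adjusted p = 0.135). Cox5b (-0.50, adjusted p = 0.0369) and Cox8a (-0.45, adjusted p = 0.0499) also fell there. Of 6 fits that left out 1 array, Cox5b held in 2 and Cox8a in 0, and neither passed after quantile normalization. Cox5b read 29657, 33711 and 28784 in the double knockout, against 44443, 47578 and 38379 in wild type, without overlap. The 3 other bright Cox5b probe sets gave log2 fold changes of -0.42, -0.61 and -0.48, 1 of them past the test, and the other bright Cox8a probe set gave -0.33. Cox7a2l, a factor of respiratory supercomplexes, read 6890 to 8267 over the 12 arrays and passed in no comparison.

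ATP synthase makes ATP from the proton gradient, with a catalytic head (Atp5a1, Atp5b), a central stalk, a ring of c subunits and a peripheral stalk. None of its 17 genes passed for gastrin over saline with either scale, although all 17 lay above 0, with a median of 0.20 and a range of 0.07 to 0.45. For saline against wild type 13 of 17 lay below 0, with a median of -0.14, and Atp5g1, which encodes subunit c, fell after quantile normalization (-0.51 ± 0.11, adjusted p = 0.0467). Atp5g1, Atp5g2 and Atp5g3 encode the same mature c subunit.

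Atp5g3, the brightest of these genes, read 45352, 45920 and 46180 in gastrin-infused knockouts, 30969, 33389 and 34808 in double knockouts and 45024, 43855 and 38607 in saline-infused knockouts, against 44996, 50594 and 43085 in wild type. The double knockout arrays were below the other 9. Atp5g3 fell in the double knockout against wild type (-0.48 ± 0.09, adjusted p = 0.0213). The peripheral stalk genes Atp5h (-0.34) and Atp5j (-0.45) and the small membrane subunit genes Atp5md (-0.54) and Atp5mpl (-0.37) also fell there, with adjusted p of 0.0312 to 0.0487. None of these 5 remained past the test after quantile normalization, where Atp5g3 gave -0.08. Atp5e passed there (-0.41 ± 0.09, adjusted p = 0.0407) and had -0.50 ± 0.13 with deposited values (adjusted p = 0.0614). Of the head, Atp5b read 25405, 24628 and 24723 in gastrin-infused knockouts, 20361, 22778 and 18185 in double knockouts and 19592, 24668 and 17088 in saline-infused knockouts, against 23436, 30500 and 25046 in wild type, and passed nowhere.

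The median gap between probe sets of 1 gene was smaller than the members' median change for gastrin over saline (0.22). The same held for the double knockout against wild type (-0.33). The gap was close in size to the change for saline against wild type (-0.14). It was larger than the change in the double knockout against the saline-infused knockout (-0.16). Over 41 genes with several probe sets bright enough to compare, the median gap between their log2 fold changes was 0.11 for gastrin over saline, 0.12 for the double knockout against wild type, 0.24 for the double knockout against the saline-infused knockout and 0.12 for saline against wild type. Probe sets of 1 gene lay on opposite sides of 0 for 8 of 41 genes in gastrin over saline, 6 in the double knockout against wild type, 10 in the double knockout against the saline-infused knockout and 16 in saline against wild type, Cycs and Uqcrq among the last. The largest gap was 2.22, in the double knockout against wild type. There a dimmer probe set of Uqcr10, a small complex III subunit, read 169, 177 and 1086 in the double knockout, against 2288, 1183 and 2491 in wild type. The one used for Uqcr10 read 10168, 10734 and 8593 in the double knockout, against 11891, 13683 and 11764 in wild type.

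Genes that serve the chain are given by list. Of 45 assembly factors 32 were measured: none passed for gastrin over saline (29 of 32 above 0, median 0.16) or for saline against wild type (median -0.20), and in the double knockout against wild type Timmdc1, a complex I assembly factor, fell (-0.79 ± 0.15, adjusted p = 0.0266). After quantile normalization Timmdc1 fell there too and Coa3, a complex IV assembly factor, rose in the double knockout against the saline-infused knockout (0.34 ± 0.08, adjusted p = 0.0442). Of 13 citric acid cycle genes 12 were measured and none passed with deposited values, with 12 of 12 above 0 for gastrin over saline (median 0.25). After quantile normalization Ogdh, a subunit of the 2-oxoglutarate dehydrogenase, fell for saline against wild type (-0.63 ± 0.14, adjusted p = 0.0436) and Suclg2, of a succinyl-CoA synthetase, fell in the double knockout against wild type (-0.52 ± 0.10, adjusted p = 0.0246).

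Of 21 carriers, channels and electron donors 18 were measured. With deposited values 1 passed: Sqor, which passes electrons from sulphide to ubiquinone, fell in the double knockout against the saline-infused knockout (-0.54 ± 0.13, adjusted p = 0.0479). After quantile normalization 2 of 18 rose for gastrin over saline, the adenine nucleotide carrier gene Slc25a4 (0.64 ± 0.09) and Ndufab1, the acyl carrier protein of complex I (0.51 ± 0.08). On that scale 3 of 18 fell for saline against wild type, the phosphate carrier gene Slc25a3 (-0.42 ± 0.09), Etfdh (-0.44 ± 0.09) and Ndufab1 (-0.43 ± 0.08), and Sqor rose (0.42 ± 0.09). In the double knockout against the saline-infused knockout Slc25a3 rose (0.49 ± 0.09) and Sqor fell (-0.38 ± 0.09). These 8 results had adjusted p of 0.0154 to 0.0423, beside the shares of all probe sets called given above.

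Among fundic cell types, parietal and enterochromaffin-like markers were called for gastrin over saline and against wild type. Of 12 parietal cell markers 9 were measured: 5 rose with gastrin over saline, 2 fell in the double knockout against wild type and 4 fell in saline-infused knockout mucosa against wild type. After quantile normalization the counts were 6, 0 and 5 of 9, and the double knockout median of -0.37 against wild type became -0.18. In the double knockout against the saline-infused knockout Kcnq1 rose and Car2 fell with deposited values, and Atp4a, Kcnq1 and Kcne2 rose after quantile normalization. Their summed intensity was 215818 to 222638 in gastrin-infused knockouts, 145544 to 154042 in double knockouts and 156975 to 186131 in saline-infused knockouts, against 203013 to 241253 in wild type. No parietal marker was at 0, and Atp4a rose with gastrin over saline and fell against wild type on both scales in saline-infused knockouts, and its fall in double knockouts was called with deposited values only. Of 4 enterochromaffin-like markers 3 were measured, with sums of 14788 to 22341 in gastrin-infused knockouts, 2658 to 3696 in double knockouts and 2484 to 2826 in saline-infused knockouts, against 7339 to 12887 in wild type. Chga and Chgb rose with gastrin over saline, Hdc and Chga fell in double knockouts against wild type, and Chga fell in saline-infused knockouts against wild type. For gastrin over saline no chief (median 0.08), surface mucous (median 0.04) or mucous neck marker (Tff2, -0.26) passed. Forestomach markers, of which 11 of 12 were measured, ran the other way: 0 of 11 lay above 0 for gastrin over saline and 11 of 11 for saline against wild type, with sums of 5352 to 27161 in gastrin-infused knockouts, 7002 to 56125 in double knockouts and 13218 to 59704 in saline-infused knockouts, against 8332 to 25887 in wild type. Of the forestomach markers 1 passed, Ly6d. It fell for gastrin over saline (-1.63 ± 0.24, adjusted p = 0.0255), also after quantile normalization. For saline against wild type it rose with deposited values only (1.15 ± 0.24, adjusted p = 0.0484). In the double knockout against wild type, 4 of 4 surface mucous markers and 3 of 5 chief cell markers also fell with deposited values, and none of these 9 passed after quantile normalization. The part of these cell types in the members' results was not tested.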

How the data were processed

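RNA of fundic mucosal scrapings was labelled with biotin, about 1 µg of total RNA per sample, and read on 1-colour short-oligonucleotide arrays, 12 in all and 3 in each of 4 groups, per the labels. The deposited values are intensities, whole numbers on a linear scale with some below 0, for every probe set on every array. How the authors summarized probes, treated background and scaled arrays is not given in the sources used here. Precision is limited by 3 arrays a group. All 12 columns were used.

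Of 22690 probe sets 64 controls were taken out. By the platform annotation 20380 probe sets had 1 gene symbol, 691 several and 1555 none. Values under 16 were raised to 16, log2 was taken, and limma 3.58.1 (R 4.3.3) was fitted to all 12 arrays with a mean per group and empirical Bayes variances. P-values were adjusted by Benjamini-Hochberg over 22626 probe sets, with a threshold of 0.05. A fold change is on this log2 scale, and errors are its SE. The 5 comparisons were also fitted after quantile normalization, and with the alternatives given at the end. The fit was run on simulated data with independent noise and known changes. Those changes were larger than the members' median changes, so the run does not show that changes of that size can be detected. Tables and figures used Python 3.11.15, pandas 2.3.3, numpy 2.4.6 and matplotlib 3.10.9.

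Members and lists were chosen with earlier results of these data known. Chosen for description were genes past the test in any comparison, the brightest gene of each complex and tissue isoforms with their common counterparts. Ndufa4, Ndufb8, Uqcrc1, Uqcrfs1, Sdha, Cycs, Cox7a2l, Atp5b, Atp5e, Atp5g1 and Uqcr10 were added after their values were seen. Promoter windows came from a RefSeq table (GRCm38.p6), and protein sequences were not used here.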

Additional observations from a re-analysis of the deposited data

How the results depend on the processing

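The 5 comparisons were refitted under each alternative, and counts are of members called. The share of all probe sets called is given above for quantile normalization but not for the other refits. For those, a change in the count cannot be told apart from a change over all probe sets. For saline against wild type (3) the count was 11 after quantile normalization, 8 with dim probe sets filtered out, 1 with the Gapdh ratio as a covariate and 5 with all probe sets of a gene. For gastrin over saline (1) it was 15 after quantile normalization, 2 with values under 64 raised to 64, 10 with the filter, 3 with an intensity trend of the prior variance and 3 with all probe sets. For the double knockout against wild type (19) it was 7 after quantile normalization, 7 with arrays centred on their median and 8 with the Gapdh covariate, and the median of -0.33 became -0.11 after quantile normalization. For the double knockout against the saline-infused knockout (10) it was 16 with the filter, 16 with the trend and 16 with all probe sets, and the median of -0.16 became 0.0445 after quantile normalization. There Atp5g3 turned to 0.10, Cox6a1 to 0.0588 and Uqcrb to 0.0207. Leaving out each array in turn gave 1 to 3 calls for saline against wild type (median -0.19 to -0.07), 1 to 1 for gastrin over saline (0.20 to 0.26), 3 to 16 for the double knockout against wild type (-0.38 to -0.24), 1 to 9 for the double knockout against the saline-infused knockout (-0.19 to -0.10) and 1 to 1 for gastrin-infused knockout over wild type (0.03 to 0.13). Of the calls, 1 of 3, 1 of 1, 3 of 19, 1 of 10 and 1 of 1 held whichever array was left out. Samples of the same replicate number had correlations of deviations of -0.12 to 0.20, which does not settle whether they were paired. A fit with the replicate block gave 3, 1, 19, 11 and 1 calls. The cause of these shifts was not tested. With 3 arrays per group, Cox6b2 and Cox8b, which reached into the noise, could not be measured reliably.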
